A study of Mus musculus with 43 samples.

Results

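Stress-hormone signalling in NAcLat→VTA cells was described through 8 genes, which are 8 of the 35825 genes in the deposited tables. They are the corticosteroid receptors *Nr3c1* and *Nr3c2*, the glucocorticoid-induced genes *Fkbp5*, *Sgk1* and *Tsc22d3*, and the corticotropin-releasing hormone (CRH) genes *Crh*, *Crhr1* and *Crhbp*. The rule lists the genes by name and uses no measured value, although the list was drawn up with earlier results of these data known. In the whole set of cells, *Sgk1* and *Fkbp5* were 3.99-fold and 3.48-fold lower in mean level in HFD cells than in REG cells. *Nr3c1*, the gene of the glucocorticoid receptor itself, was not lower, and the 3 CRH genes were each counted in 5 cells or fewer.

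Each library holds the cytosol of 1 neuron of the lateral shell of the nucleus accumbens (NAcLat) that carried fluorescent retrobeads injected into the ventral tegmental area (VTA), drawn into the patch pipette after a whole-cell recording in a brain slice. REG mice ate standard chow with 4% fat, and HFD mice could choose in the home cage between that chow and one with 60% fat, over 4 weeks or longer. There were 23 REG cells, 13 in batch 1 and 10 in batch 2, and 20 HFD cells, 5 in batch 1 and 15 in batch 2. The labels name neither the mouse, its sex and strain nor what a batch stands for, so cells of a mouse share a source that cannot be traced, and each diet was treated as 1 sample without replicates. No test was therefore run between the diets, and intervals cover counting error only. Mice used in the study were 6–8 weeks old, of both sexes and of several lines, and no transgene is named for these cells.

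Total counts ranged from 176961 to 16919555 per cell, with medians of 1427698 in REG cells and 1416982 in HFD cells. *Lars2* took between 2.33% and 79.8% of the counts of a cell. Thinned to 150000 counts per cell, *Lars2* included, the median number of genes detected was 7841 in REG cells and 7206 in HFD cells. Within batch 1 it was 7372 and 7893, and within batch 2 it was 8222.5 and 6573. The cell type label was checked with 12 markers of GABAergic medium spiny neurons. *Drd1*, *Ppp1r1b*, *Gad1*, *Gad2*, *Foxp1*, *Rgs9*, *Tac1* and *Pdyn* had counts in 43 of 43 cells, *Bcl11b* in 42 and *Penk* in 35. *Adora2a* was counted in 13 cells and *Drd2* in 9, of which 7 were HFD cells. REG cell 10 had 2.56 CPM of *Drd1*, 682 CPM of *Ppp1r1b* and 131 CPM of the interneuron gene *Chat*.

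Corticosterone crosses cell membranes and binds 2 related nuclear receptors. The mineralocorticoid receptor binds it with high affinity and the glucocorticoid receptor with lower affinity, so the latter is engaged mainly when the hormone is high. The liganded glucocorticoid receptor leaves its Hsp90 chaperone complex, enters the nucleus and binds glucocorticoid response elements, a palindrome whose arms read AGAACA and TGTTCT. *Fkbp5* encodes a co-chaperone that lowers the affinity of the receptor for its hormone, *Sgk1* a kinase that regulates ion channels and transporters, and *Tsc22d3* the protein GILZ. CRH is the hypothalamic peptide that starts the hormonal stress response, and neurons elsewhere in the brain also make it.

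The promoters of the 3 induced genes are shown because these genes share a known regulator. The windows come from RefSeq (GRCm38.p6) and run from 250 bases before to 50 bases after an annotated start site. The table gave 13 windows for 6 of the 8 genes, and *Nr3c1* and *Crh* had none. Both strands were searched for the 15-base palindrome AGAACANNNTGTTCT and for the 6-base motif TGTTCT, which the palindrome itself contains on each strand. The palindrome occurred in 3 of 32851 windows (0.00913%), in the genes *Acnat2*, *Gm35041* and *Sgk1*. In *Sgk1* it lies in 1 of 6 windows and starts 189 bases before the start site. TGTTCT occurred in 18.97% of all windows, in 3 of 6 windows of *Sgk1*, in 1 of 3 windows of *Tsc22d3* and in none of the single windows of *Fkbp5*, *Nr3c2*, *Crhr1* and *Crhbp*. Capitals mark the palindrome in *Sgk1* and TGTTCT in *Tsc22d3*, and the *Fkbp5* window is shown as one without either motif.
*Sgk1* chr10:21993640-21993939 (+ strand): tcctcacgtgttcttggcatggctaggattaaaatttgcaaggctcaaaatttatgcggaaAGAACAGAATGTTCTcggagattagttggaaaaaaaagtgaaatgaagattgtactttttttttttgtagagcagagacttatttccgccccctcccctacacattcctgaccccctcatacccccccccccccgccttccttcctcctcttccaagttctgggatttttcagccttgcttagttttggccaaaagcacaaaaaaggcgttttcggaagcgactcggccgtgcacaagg
*Tsc22d3* chrX:140600473-140600772 (− strand): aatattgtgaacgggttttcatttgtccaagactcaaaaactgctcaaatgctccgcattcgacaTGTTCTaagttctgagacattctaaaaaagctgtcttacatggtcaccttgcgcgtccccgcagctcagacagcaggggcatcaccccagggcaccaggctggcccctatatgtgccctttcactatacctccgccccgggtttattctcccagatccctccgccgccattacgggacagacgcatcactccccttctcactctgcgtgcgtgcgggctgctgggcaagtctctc
*Fkbp5* chr17:28486100-28486399 (− strand): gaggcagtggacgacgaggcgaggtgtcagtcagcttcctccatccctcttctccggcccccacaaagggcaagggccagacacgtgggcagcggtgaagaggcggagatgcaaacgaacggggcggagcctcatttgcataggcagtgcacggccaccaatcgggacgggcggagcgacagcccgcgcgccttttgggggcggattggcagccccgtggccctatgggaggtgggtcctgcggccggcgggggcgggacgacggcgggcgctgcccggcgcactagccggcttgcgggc
These matches describe letters in the windows. They do not show binding, and a window without a match says only that these letters are not in it. The deposited counts are summed over the transcripts of a gene, so no count could be given to any of the 6 start sites of *Sgk1*.

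Levels of different genes were compared in transcripts per 1000000 (TPM), which account for transcript length. *Sgk1* had the highest mean, 48.0 TPM over the 43 cells, followed by *Nr3c1* with 28.02 TPM. The mean of *Crh* was 16.97 TPM but its median was 0, since almost all of it came from 3 cells. *Nr3c2* (13.6 TPM) and *Fkbp5* (13.2 TPM) were next to each other, *Tsc22d3* followed with 7.36 TPM, and *Crhr1* (1.41 TPM) and *Crhbp* (0.00927 TPM) were lowest. Every gene was at 0 in at least 3 cells, so the ranges of neighbours in this order overlap. Among the 10802 genes that passed the expression filter, 71.3% had a lower mean TPM than *Sgk1* and 29.1% a lower one than *Fkbp5*.

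Detection means an estimated count above 0. *Nr3c1* was detected in 40 of 43 cells (93.0%, exact 95% binomial interval 80.9% to 98.5%), *Sgk1* in 37, *Nr3c2* in 36, *Fkbp5* in 34 and *Tsc22d3* in 20. *Crh* was detected in 5 cells, *Crhr1* in 4 and *Crhbp* in 2. The filter, a level above 15 counts per 1000000 (CPM) in at least 5 cells and a mean above 4 CPM, was passed by *Nr3c1*, *Nr3c2*, *Fkbp5* and *Sgk1*, and the other 4 genes stayed below it. Diets were compared by dividing the mean CPM in HFD by the mean CPM in REG and taking log2, so that 1 or −1 is a 2-fold difference. Of the 4 genes that passed the filter, 2 were at least 2-fold apart, both lower in HFD cells, where 23.3% of all filtered genes were at least 2-fold apart in either direction and 14.3% were at least 2-fold lower. *Fkbp5* passed the filter through its REG cells, of which 8 were above 15 CPM against 2 HFD cells, whereas *Sgk1* was above it in enough cells of either diet. Both *Sgk1* and *Fkbp5* also had ratios below 0 within each batch, which together with a pooled ratio of −1 or less held for 11.7% of filtered genes. The log2 ratio over all filtered genes had a median of −0.13.

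*Nr3c1* encodes the glucocorticoid receptor. Its level in REG cells was 0 CPM at the lowest, 28.7 at the median and 194 at the highest. In HFD cells it was 0, 52.2 and 661 CPM. The ranges overlap over the whole span of the REG cells, and only HFD cells 19 and 16, at 661 and 354 CPM, lie above it. On average *Nr3c1* stood at 56.96 CPM in REG and 99.97 CPM in HFD, which is a log2 ratio of 0.81. Without HFD cell 19 the ratio was 0.31, and with deposited TPM in place of CPM it was 0.17. Within batch 1 the means were 51.8 and 50.3 CPM, a ratio of −0.04, and within batch 2 the ratio was 0.87. Scaling the totals by TMM factors gave 1.34, past the 2-fold mark, while moving the median of all genes by 0.14. The receptor was above 15 CPM in 16 of 23 REG cells and in 15 of 20 HFD cells.

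*Nr3c2* (chr8:76899442-77245012, + strand, GRCm38) encodes the mineralocorticoid receptor. REG cells ranged from 0 CPM through a median of 7.55 to 123 CPM, and HFD cells from 0 through 5.96 to 184 CPM. The groups overlap almost fully, and most cells of either diet are low, with a few above 40 CPM. The means were 25.6 and 25.1 CPM, a log2 ratio of −0.03 that moved to −0.61 without HFD cell 11 and to 0.25 without REG cell 15. Ratios were −0.83 within batch 1 and −0.32 within batch 2, both below the pooled value. The mean over both diets was 14.1 CPM in batch 1 and 33.5 CPM in batch 2, which holds 15 of the 20 HFD cells. An exon of *Nr3c2* overlaps *Gm10649* on the opposite strand, and reads of the 2 genes cannot be told apart there if the library carried no strand.

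**Figure D1:**
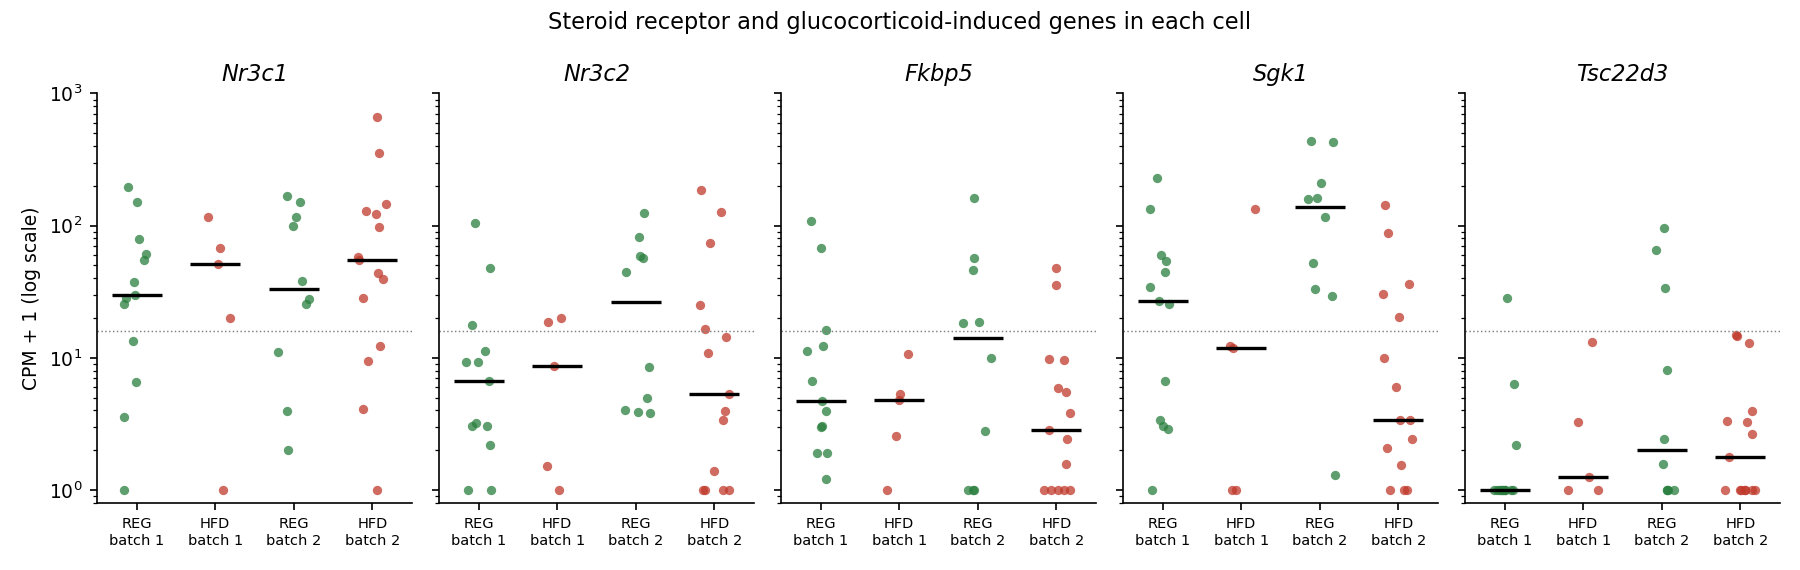
CPM plus 1 on a log scale for the corticosteroid receptors and the glucocorticoid-induced genes, with 1 point per cell, the black bar at the median of each diet and batch, and the dotted line at 15 CPM. *Sgk1* in batch 2 shows the widest gap between medians, 138 CPM for REG against 2.41 CPM for HFD. For *Nr3c1* and *Nr3c2* the diets overlap, apart from HFD cells 19 and 16 and HFD cells 11 and 20, respectively, which lie above every REG cell. The batch 2 medians of *Nr3c2* were 25.4 CPM for REG and 4.31 CPM for HFD.

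Transcripts of both receptors were found together in most cells. Both were detected in 20 of 23 REG cells and in 13 of 20 HFD cells. In TPM, *Nr3c1* exceeded *Nr3c2* in 14 of 23 REG cells (60.9%, 38.5% to 80.3%) and in 15 of 20 HFD cells (75%, 50.9% to 91.3%). These intervals overlap, cover counting error only and are no test between the diets. Mean *Nr3c1* was 26.5 TPM in REG cells and 29.8 TPM in HFD cells, and mean *Nr3c2* was 17.03 and 9.74 TPM. Neither receptor dominated in every cell. *Nr3c2* alone was detected in 3 cells and *Nr3c1* alone in 7, of which 5 were HFD cells.

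**Figure D2:**
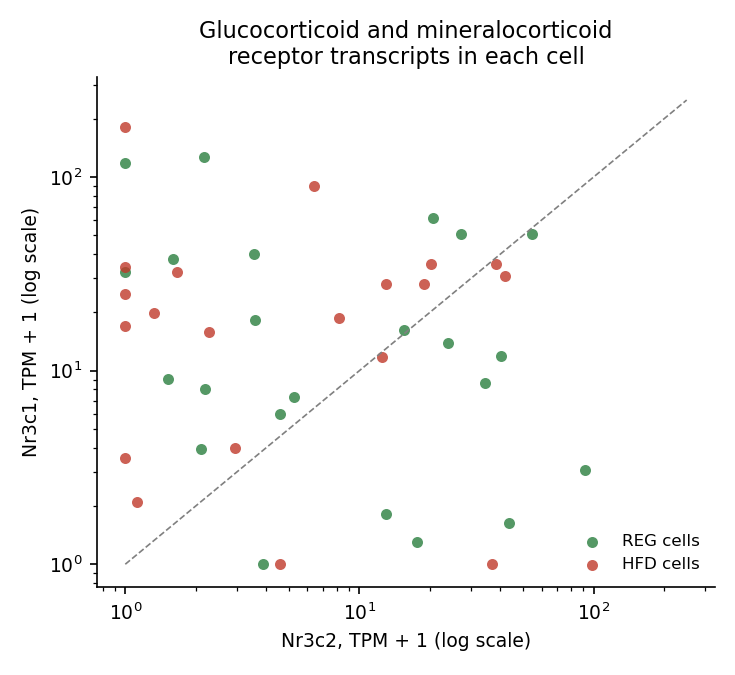
TPM plus 1 of *Nr3c1* against *Nr3c2*, both on log scales, with 1 point per cell and a dashed line at equal levels. Points above the line, 14 of 23 REG cells and 15 of 20 HFD cells, hold more *Nr3c1* than *Nr3c2*.

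*Sgk1* (chr10:21882184-21999903, + strand) was lower in HFD cells. Its level in REG cells was 0 CPM at the lowest, 43.8 at the median and 437 at the highest, and in HFD cells it was 0, 3.69 and 141 CPM. Most HFD cells lie below most REG cells although the ranges overlap from 0 to 141 CPM. The means were 97.4 and 24.4 CPM, 3.99-fold lower on HFD, and the log2 ratio of −1.997 lay below that of all but 2.79% of filtered genes. Leaving out any 1 cell kept it between −2.42 and −1.75. *Sgk1* was above 15 CPM in 17 of 23 REG cells (73.9%) and in 6 of 20 HFD cells (30%). This difference of −43.9 percentage points was matched or exceeded downward by 0.167% of the filtered genes, whose median shares were 43.5% and 40%.

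The difference in *Sgk1* was unequal between the batches. In batch 2 the REG cells had 0.293 CPM at the lowest, a median of 138 CPM and 437 CPM at the highest, and the HFD cells had 0, 2.41 and 141 CPM. Of 10 REG cells 9 were above 15 CPM, all but REG cell 23, against 5 of 15 HFD cells, and the log2 ratio was −2.87. In batch 1 the 5 HFD cells had 0, 0, 10.8, 11.3 and 132 CPM, and the 13 REG cells had 0, 25.9 and 230 CPM as lowest, median and highest. HFD cell 3 alone held 85.7% of the summed HFD level there, and the ratio in batch 1 was −0.61, short of 2-fold, or −3.10 without that cell and −0.05 without REG cell 2. The difference between the batches was not tested.

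*Fkbp5* (chr17:28399094-28517527, − strand) had a lower mean in HFD cells in both batches, through its highest cells. REG cells had 0 CPM at the lowest, 5.65 at the median and 162 at the highest, and HFD cells 0, 2.33 and 47.1 CPM. The low ends overlap, and the 4 highest REG cells lie above every HFD cell. The means of 23.4 and 6.72 CPM gave a log2 ratio of −1.80, below that of all but 3.81% of filtered genes. Batch 1 alone gave −2.19 and batch 2 alone −2.01, and a ratio of −1 or less in both batches was seen in 6.04% of filtered genes. Without REG cell 19, the highest cell, it was −1.35, and without HFD cell 18 it was −2.35. In batch 1 the 13 REG cells had 0.214 CPM at the lowest, 3.69 at the median and 108 at the highest, and the 5 HFD cells had 0, 1.55, 3.81, 4.35 and 9.65 CPM. The medians there, 3.69 and 3.81 CPM, were thus alike, and REG cells 12 and 10 held 76.1% of the summed REG level. Without REG cell 12 the ratio of batch 1 was −1.39, and without REG cell 19 that of batch 2 was −1.08. *Fkbp5* was above 15 CPM in 8 of 23 REG cells and in 2 of 20 HFD cells. This difference of −24.8 percentage points was matched or exceeded downward by 6.36% of the filtered genes. The filter uses the same limit and *Fkbp5* passed it through its REG cells. Its ranks among filtered genes are thus not independent of the filter and are given as a description.

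*Tsc22d3* (chrX:140539528-140600659, − strand) did not pass the filter, so its values are given as a description of a sparse gene. Counts were present in 9 of 23 REG and 11 of 20 HFD cells, thus not in fewer HFD cells, but at lower levels. REG cells had 0 CPM at the lowest and at the median and 94.6 CPM at the highest, and HFD cells had 0, 0.513 and 13.95 CPM. The 4 cells above 15 CPM were all REG cells, 3 of them in batch 2. The means of 10.2 and 3.20 CPM gave a log2 ratio of −1.67, which was −0.996 without REG cell 19, 0.18 within batch 1 and −2.62 within batch 2. Batch 1 gave −2.03 without HFD cell 4 and 2.46 without REG cell 13. REG cell 19 was the highest cell for both *Tsc22d3* and *Fkbp5*.

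**Figure D3:**
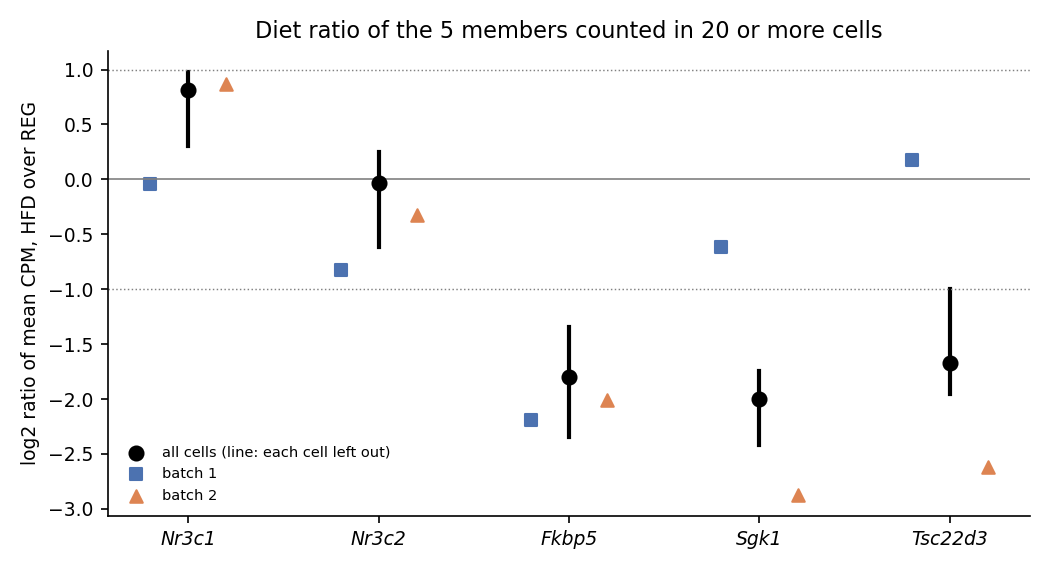
Log2 ratio of mean CPM, HFD over REG, for the 5 genes counted in 20 or more cells, with black points for all cells, black lines for the range when each cell is left out in turn, squares for batch 1 and triangles for batch 2. *Fkbp5* lies below −1 at every value shown, *Sgk1* at every value but that of batch 1 (−0.61), and the receptors lie within 1 of 0.

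A cell could lack 1 induced gene and hold another. At least 1 of *Fkbp5*, *Sgk1* and *Tsc22d3* was above 15 CPM in 21 of 23 REG cells (91.3%, exact 95% limits 71.96% to 98.9%), against 7 of 20 HFD cells (35%, 15.4% to 59.2%). At least 2 were above it in 7 REG cells and in 1 HFD cell. The contrast was present in both batches, with 11 of 13 REG cells and 1 of 5 HFD cells in batch 1, and 10 of 10 and 6 of 15 in batch 2. With any count above 0 as the limit the order was not the same, since at least 1 gene was detected in 23 of 23 REG and 18 of 20 HFD cells, and all 3 genes in 7 REG cells (30.4%) and 10 HFD cells (50%). The contrast thus concerns cells above 15 CPM, and the shares for other groups of 3 genes were not computed. It reuses the values of the single genes and is no separate result. *Sgk1* alone was above 15 CPM in 17 of 23 REG and 6 of 20 HFD cells, and the 4 such cells of *Tsc22d3* were all REG cells. The limits cover counting error only. REG cell 23, with 0.293 CPM of *Sgk1* and no *Fkbp5*, had 32.8 CPM of *Tsc22d3*. REG cell 16, with the highest *Sgk1*, had no count of either other gene. REG cell 19 was the single cell with all 3 above 15 CPM, and it had 0.996 CPM of *Nr3c1*.

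**Figure D4:**
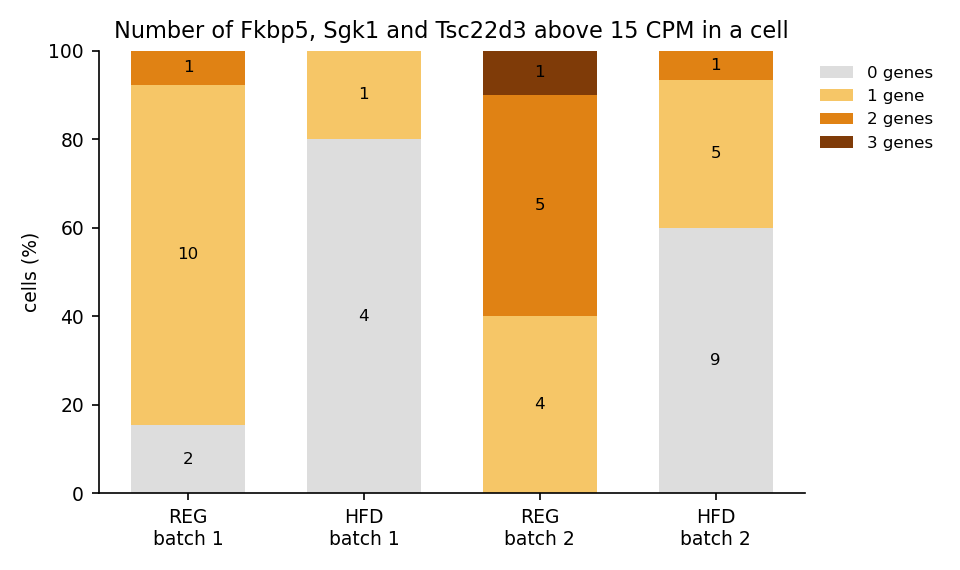
Percent of cells by how many of *Fkbp5*, *Sgk1* and *Tsc22d3* were above 15 CPM, for each diet and batch, with the number of cells printed in each segment. Cells with none number 2 of 13 and 0 of 10 for REG, and 4 of 5 and 9 of 15 for HFD.

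Across all 43 cells together the members' levels were weakly related. Over the 10 pairs of the 5 genes counted in 10 or more cells, Spearman's rho of the CPM lay between −0.17 and 0.18, and values this weak in sparse counts from libraries of unequal depth are no finding. Within single diets or batches, which hold fewer cells, they spread from −0.43 for *Nr3c1* and *Nr3c2* in batch 1 to 0.62 for *Fkbp5* and *Tsc22d3* in HFD cells, where REG cells gave −0.04. The receptor and its induced genes were among these pairs, with 0.16 for *Nr3c1* and *Sgk1* and −0.17 for *Nr3c1* and *Fkbp5*. By the same measure, the genes most like *Sgk1* were *Fam84b* (0.56), *Zfp334* (0.55) and *B430305J03Rik* (0.52), and those like *Fkbp5* included *Dkc1* (0.53) and *Cul7* (0.51). *Nr3c1* was most like *Golga7* (0.57), *Armcx2* (0.56) and *Parp2* (0.54), and *Nr3c2* most like *Hnrnpc* (0.57), *Bax* (0.56) and *1810013L24Rik* (0.55). These were picked from the highest of 10801 values for each gene. The lowest values were of similar size, −0.52 for *Sgk1*, −0.49 for *Fkbp5*, −0.54 for *Nr3c1* and −0.49 for *Nr3c2*. Whether the highest exceed what unrelated genes would give was not tested.

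As a group, the other genes listed as glucocorticoid-induced that passed the filter were not lower in HFD cells. Of 22 such genes, all were counted in at least 1 cell and 14 passed the filter. Among these, 1 was at least 2-fold lower in HFD cells, 2 were at least 2-fold higher (9.04% of all filtered genes were) and 11 were in between, and the median log2 ratio was 0.21, where it was −0.13 over all filtered genes. The gene on the low side was *Irs2*, an adaptor of the insulin receptor, with means of 96.8 and 40.2 CPM and a ratio of −1.27. *Tsc22d4*, a relative of *Tsc22d3*, had 9.73 and 38.2 CPM, a ratio of 1.97, and *Bcl6*, a transcriptional repressor, 14.4 and 31.4 CPM, a ratio of 1.12 that was 0.72 without HFD cell 11. The clock gene *Per1* (0.05), the transcription factor gene *Klf9* (0.19), the phosphatase gene *Dusp1* (−0.18) and the metallothionein gene *Mt1* (0.23) were near 0. Within batches 1 and 2, *Per1* had 0.83 and −0.26, and *Mt1* had −0.43 and 0.50. Of the 14 genes 5 had ratios below 0. Among these were *Mt2*, also a metallothionein gene (−0.73, with −1.01 and −1.10 by batch), and *Errfi1* (−0.73, with −0.70 and −0.98). *Nfkbia*, which encodes an inhibitor of NF-κB, had a ratio of 0.23 that joined 2.43 in batch 1 with −0.93 in batch 2, and without REG cell 16 it was 1.24. Several of them were abundant, with mean levels of 1077 TPM for *Mt1* and 248 TPM for *Dusp1*. Below the filter, *Arrdc2* was counted in 11 of 23 REG and 2 of 20 HFD cells, with a ratio of −4.85. *Sult1a1* (−3.20) and *Lcn2* (−1.55) were also lower there, but both ratios depended on a single cell. Leaving out 1 cell raised them to as much as −0.66 and 0.86. The rest had ratios between 0.15 and 0.83.

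The receptor's chaperones were present at high levels. All 14 chaperone genes passed the filter, led by *Hspa8* (925 TPM), *Hsp90aa1* (793 TPM) and *Hsp90ab1* (732 TPM), and the median ratio was −0.07. *Stub1*, which encodes the ubiquitin ligase CHIP, was at least 2-fold lower in HFD cells, with 165 and 72.5 CPM and a ratio of −1.19, or −0.99 without REG cell 1. *Fkbp4*, whose protein competes with that of *Fkbp5* for Hsp90, was at least 2-fold higher in mean level only. Its means were 44.5 and 107 CPM, a ratio of 1.27. The medians ran the other way, 41.5 CPM on REG against 24.6 CPM on HFD. The ratio of the means was −0.13 in batch 1 alone and 0.71 without HFD cell 7. In TPM the mean of *Fkbp4* was 41.7 in REG cells and 80.4 in HFD cells, and that of *Fkbp5* was 20.5 and 4.84. Median TPM was lower on HFD for both genes, 23.01 against 27.97 for *Fkbp4* and 1.46 against 4.80 for *Fkbp5*. *Fkbp4* exceeded *Fkbp5* in 13 of 23 REG cells and in 15 of 20 HFD cells.

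All 14 coregulator genes also passed the filter, with a median ratio of −0.26. *Ncoa2*, a coactivator of the receptor, was at least 2-fold lower in HFD cells, with 47.1 and 19.97 CPM and a ratio of −1.24 (−0.94 without REG cell 17), and none was at least 2-fold higher. *Ncoa1*, its relative, had a ratio of −0.88 and the corepressor gene *Ncor1* one of −0.08. Over all 71 genes of the 6 pathway lists, 43 passed the filter, 3 were at least 2-fold higher and 3 at least 2-fold lower, and the median of −0.13 equalled that of all filtered genes. These 6 of 43 genes stand beside 23.3% of all filtered genes, a share that was 17.7% with the filter at 10 cells. All filtered genes were not matched to the lists in level, and whether the shares differ was not tested.

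**Figure D5:**
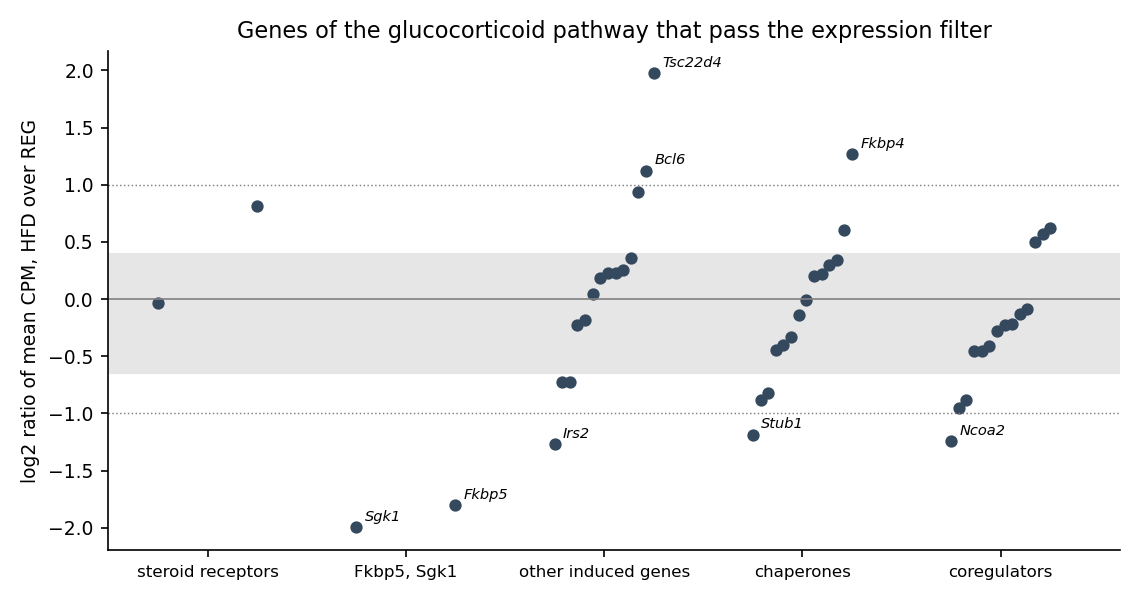
Log2 ratio of mean CPM, HFD over REG, for genes of the glucocorticoid pathway that passed the filter, with 1 point per gene, dotted lines at 1 and −1 and a grey band from the 25th to the 75th percentile of all filtered genes (−0.65 to 0.40). *Sgk1* (−1.997) and *Fkbp5* (−1.80) lie below every gene of the other lists, of which *Irs2* (−1.27) is the lowest.

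Enzymes and carriers that set the hormone level inside a cell were sparse. None of 9 passed the filter. *Hsd11b1*, whose enzyme regenerates active corticosterone, was counted in 3 cells, and *Hsd11b2*, whose enzyme inactivates it, in 0 of 43 cells, a count of 0 that allows, at a floor of 3 cells, up to 6.98% of cells with counts. The efflux pump genes *Abcb1a* and *Abcb1b* were counted in 7 and 15 cells.

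The CRH genes were found in few cells. *Crh* (chr3:19693401-19695396, − strand) had 516 counts in HFD cell 10 (283 CPM), 108 in HFD cell 4 (40.1 CPM) and 79 in REG cell 11 (163 CPM). REG cells 10 and 20 had 1 count each. The 3 cells with many counts also held *Drd1*, *Ppp1r1b* and *Gad1*, and HFD cell 10 had 189, 1519 and 403 CPM of them. In HFD cell 10 *Crh* exceeded 94.9% of the 10802 filtered genes, those without counts in that cell included. The interneuron genes *Sst*, *Npy*, *Vip* and *Chat* were at or below 2.23 CPM in these 3 cells, while *Pvalb* reached 18.1 CPM in HFD cell 10 and *Nos1* 12.1 CPM in HFD cell 4. The neuropeptide gene *Nts* was at 1714 CPM in HFD cell 10, 587 CPM in HFD cell 4 and 186 CPM in REG cell 11.

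*Crhr1* (chr11:104132855-104175523, + strand) encodes the main CRH receptor. It had 370 counts in HFD cell 20 (44.9 CPM), 19 in REG cell 15 (55.8 CPM), 3 in REG cell 2 and 1 in HFD cell 6. No cell held counts of both *Crh* and *Crhr1*. *Crhbp* (chr13:95431371-95444924, − strand), whose protein binds and sequesters CRH, had 1 count in REG cell 14 and 2 counts in HFD cell 19. These are within a floor of 3 counts, and no fold is given. *Crh* was detected in 3 of 23 REG cells (13.04%, exact 95% limits 2.78% to 33.6%) and in 2 of 20 HFD cells (10%, 1.23% to 31.7%). *Crhr1* was detected in 2 of 23 and 2 of 20. A difference between diets was not tested, and so few cells with counts could neither show nor exclude one.

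The mean ratios of the CRH genes rested on single cells. *Crh* had means of 7.22 and 16.2 CPM, and its log2 ratio of 1.16 became −1.77 without HFD cell 10 and 6.86 without REG cell 11. *Crhr1* had means of 2.52 and 2.30 CPM, and its ratio of −0.13 became −5.47 without HFD cell 20 and 4.52 without REG cell 15. The rest of the family was equally sparse. *Crhr2* was counted in 3 cells and *Ucn2* in 6, and *Ucn* and *Ucn3* in 0 of 43 cells. Among genes of other stress hormones, *Adcyap1r1*, the receptor of the peptide PACAP, passed the filter, with 20.4 and 19.3 CPM and a ratio of −0.08. Batch 1 alone gave 1.91 and batch 2 alone −1.84.

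Markers of other cell types were counted as well. The summed level of 7 microglial markers had a mean of 170 CPM in REG cells, between 0 and 1245, and of 290 CPM in HFD cells, between 1.14 and 1389. For 7 oligodendrocyte markers the means were 73.4 and 128 CPM, and for 7 astrocyte markers 134 and 104 CPM. For 10 striatal interneuron markers they were 99.2 and 117 CPM. The 7 endothelial markers were low, with means of 8.12 and 5.76 CPM and *Ly6c1* at 0. Without the 6 cells that held at least 4 of 7 microglial markers above 15 CPM, the log2 ratios were −2.32 for *Sgk1*, −1.39 for *Fkbp5*, −1.83 for *Tsc22d3*, 0.69 for *Nr3c1* and −0.36 for *Nr3c2*. The highest *Nr3c1* cell, HFD cell 19, had a microglial sum of 1.14 CPM, and the second, HFD cell 16, one of 911 CPM. HFD cell 19 had an interneuron sum of 488 CPM, with *Sst* at 124 CPM, beside a medium spiny neuron sum of 8451 CPM. The cells highest in *Sgk1*, REG cells 16 and 18, had 3 microglial markers each above 15 CPM and sums of 580 and 417 CPM, and REG cell 12, second in *Fkbp5*, had the highest sum of the REG cells, 1245 CPM. Over both batches the median number of genes detected after thinning to equal totals was also lower in HFD cells. Within batch 1 it was higher in them, at 7893 against 7372 in REG cells. With cells thinned to 150000 counts the ratios of *Sgk1* and *Fkbp5* were −2.26 and −1.13. The part of the other cells' RNA and of the number of genes detected in these results was not tested.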

How the data were processed

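Single-cell patch sequencing libraries of 43 NAcLat→VTA cells were analysed. The authors used kallisto to pseudo-align reads to GRCm38 transcripts, summed these per gene and left out cells of low depth. The deposited tables hold estimated counts without normalization and TPM scaled by the authors within each cell. The submitters' processing notes also name edgeR.

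CPM was each count divided by its cell's total and multiplied by 1000000. Diets came from the treatment labels. A gene was taken as apart at a log2 ratio of mean CPM of at least 1 in size, without a pseudocount. Shares carry exact (Clopper-Pearson) 95% binomial intervals, which cover counting error only. With the mouse of each cell not named, no test between diets was run. The members and gene lists were chosen with earlier results of these data known. Genes were named where they are members, the 3 most like a member by Spearman's rho, listed pathway genes past 2-fold, or textbook examples of their list. A gene that this rule names is not reported here. Gene positions came from GENCODE and promoters from RefSeq. TMM factors came from edgeR 4.0.16 and size factors from DESeq2 1.42.0 in R 4.3.3. All else was computed in Python 3.11.15 with scipy 1.17.1, pandas 2.3.3 and numpy 2.4.6, and drawn with matplotlib 3.10.9.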

Additional observations from a re-analysis of the deposited data

Results flagged for a closer look

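Within each diet and batch of 4 to 10 cells, the distance of the highest or lowest cell to the next was compared with the range by Dixon's criterion. Of 14 such groups 7 held a cell that stood apart. Chance flags about 1 in 20 groups of normally distributed values, a rate that does not hold for skewed counts with many zeros, so the number is not read against it. *Sgk1* was at 132 CPM in HFD cell 3 of batch 1, where the next cell had 11.3 CPM. *Tsc22d3* was at 12.3 CPM in HFD cell 4 of batch 1, where the next cell had 2.30 CPM. *Fkbp5* was at 162 CPM in REG cell 19 of batch 2, where the next cell had 55.4 CPM.

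The other 4 groups held a single cell with counts, all other cells being at 0, so that the criterion was met by construction. *Crh* was at 40.1 CPM in HFD cell 4 of batch 1 and at 0.503 CPM, from 1 count, in REG cell 20 of batch 2. *Crhr1* was at 55.8 CPM in REG cell 15 of batch 2. *Crhbp* was at 0.0591 CPM, again 1 count, in REG cell 14 of batch 2.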

How the results depend on the processing

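No paired analysis was possible because no label ties a REG cell to an HFD cell. The log2 ratio of *Fkbp5* was at or below −1 in 14 of 14 alternatives (−2.77 to −1.11) and that of *Sgk1* in 13 of 14 (−3.57 to −0.61, the latter in batch 1 alone). *Nr3c1* ranged from −0.04 to 1.34, *Nr3c2* from −0.83 to 0.66 and *Tsc22d3*, in 13 alternatives, from −3.29 to 0.18. The number of members past 2-fold was 2, but 1 in batch 1 alone, 3 with TMM factors or DESeq2 size factors, where *Nr3c1* joined on the higher side, and 5 without a filter, *Crhbp* with its 3 counts among them. The percent of filtered genes past 2-fold was 23.3, but 41.1 with the median over cells, 35.9 with summed counts, 42.2 in batch 1 alone and 40.2 without a filter. The number of members detected in at least 1 in 2 cells was 4, but 2 with a limit of 10 counts and 2 with a limit of 15 CPM, and 5 in HFD cells alone or batch 2 alone. Of the genes past 2-fold 38.8% were higher in HFD cells, but 51.8% with TMM factors, 52.4% with DESeq2 size factors, 27.3% with the median over cells and 19.02% with mean log2(CPM + 1). TMM factors and DESeq2 size factors moved the median ratio of all genes by 0.14 and 0.15. Leaving out the cells rich in microglial markers or of low depth, and each cell within a batch, was chosen after the data were seen. Genes with few counts, such as *Crhbp*, are limited by depth.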
